A study of Mus musculus with 8 samples.

Results

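The subject is the protein machinery of miRNA silencing as mRNA: the 4 Argonaute genes, listed on the array as Eif2c1 to Eif2c4 and now named Ago1 to Ago4, the scaffold genes Tnrc6a, Tnrc6b and Tnrc6c, and the RNA helicase genes Ddx6 and Mov10. The rule takes probes by gene name and uses no measured value, although the gene list was drawn up with earlier results of these data known. All non-control probes that carry these names were taken, which gave 12 probes for 9 genes out of 55681 probes for 36163 gene names. Each probe is reported on its own, and each was printed in 1 spot per array.

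Mouse ES cells of the E14Tg2A line (strain 129/Ola) were neuralized in vitro and collected at 4 stages, which the labels give by days in vitro (DIV) and the study by the stage names used here. They were undifferentiated ES cells in medium with serum and LIF (0 DIV), aggregates of epiblast-like cells (ELA, 2 DIV), neural progenitor cells (NPC, 6 DIV) and neural precursors (NPC/Neu, 10 DIV), the last 3 in chemically defined medium. RNA held by Argonaute in the cytosolic fraction was pulled down at every stage with 2A8, a pan-Ago antibody, and put on 1 array (Ago–RNA), and total RNA was put on another. Each of the 8 arrays received RNA pooled from 3 independent experiments, so no value has a replicate and no p-value is given. All stages derive from 1 cell line, and each culture can hold cells of several types.

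Argonaute proteins carry a miRNA and hold the mRNAs that it pairs with. Tnrc6 proteins, also named GW182 proteins, bind Argonaute and recruit the enzymes that shorten poly(A) tails and block translation, while Ddx6 is a helicase of translational repression and decapping and Mov10 is a helicase found with Argonaute. The miR-290 family is abundant in ES cells, the miR-302 family is more typical of the primed epiblast, and let-7 and miR-9 are known from neural cells.

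Stage markers followed the labels in part. Pou5f1, the core pluripotency factor, had normalized log2 total RNA signals of 15.21, 14.76, 7.98 and 8.31 from ES to NPC/Neu, Fgf5 was highest in ELA (14.78), Hes5 reached 16.28 in NPC and 16.19 in NPC/Neu and the brightest Dcx probe was highest in NPC/Neu (14.04). The neuron marker Stmn2 was already at 14.44 in ES cells, and 1 of 2 Nanog probes was highest in NPC/Neu (11.04). As a set, the 7 probes of 5 NPC marker genes were higher in NPC/Neu, with a summed linear signal of 161485 in NPC and 310773 in NPC/Neu. The 7 probes of 6 ES cell marker genes summed to 190129.4, 48675.5, 5359.5 and 9456.4 over the stages, so they were higher in NPC/Neu than in NPC. Markers of cell types that the protocol does not aim for were also seen, with 8 mesendoderm probes for 6 genes summing to a linear signal of 985, 1434, 3670.0 and 4161 over the stages (4, 3, 6 and 5 of them well above background), and Gata6 and Afp not well above background on any total RNA array. From ELA on the brightest mesendoderm probe was 1 of Foxa2, with 7.01, 8.90, 10.66 and 11.24 over the stages. From ES to NPC/Neu T went from 7.19 to 9.31 and Gata4 from 7.64 to 6.98, so the sum is not shared evenly. The 2 fibroblast probes summed to 600, 366, 1112 and 3160. The part of these cells in the changes below was not tested. On cultures of mixed cells, a change in the share of a cell type and a change in the RNA per cell cannot be told apart. Before normalization the ES Ago–RNA array was the brightest, with an upper quartile of signal of 3039 against 1060 to 1774 elsewhere.

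The probes lie at different places in their mRNAs, and coordinates are given for mm9, where each 60-base probe matched the genome exactly. Eif2c3, Eif2c1 and Eif2c4 lie in a row on chromosome 4 on the minus strand, with 5455 bases between the first 2 of them and 20906 between the last 2. The probes of Eif2c1 lie in the 3′ UTR (chr4:126112644-126112703), 388 bases from the transcript end, and in the coding sequence (chr4:126117202-126117261), 4716 bases from it. Both Eif2c2 probes lie in the 3′ UTR on the minus strand of chromosome 15, at chr15:72936863-72936922 and at chr15:72935705-72935764, which is 4808 and 3650 bases from the transcript end. Both Eif2c4 probes lie in the 3′ UTR, 373 bases (chr4:126167162-126167221) and 2748 bases (chr4:126169537-126169596) from the end. The probe of Eif2c3 (chr4:126032332-126032391) is coding and is held by 1 of 5 annotated transcripts. The Tnrc6b probe is coding as well (chr15:80759793-80759852), 11664 bases from the end. Those of Tnrc6a (chr7:130338627-130338686), Tnrc6c (chr11:117624691-117624750), Ddx6 (chr9:44446368-44446427) and Mov10 (chr3:104597754-104597813) lie in 3′ UTRs. They are 116, 3, 2387 and 0 bases from the transcript end.

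Argonautes are close relatives in their coding sequence, which bears on what a coding probe reads. No probe matched a coding transcript of another gene exactly. For the 10 probes other than the coding probes of Eif2c1 and Eif2c3, the most similar stretch in the transcripts of the other members shared at most 34 of 60 bases. The coding probe of Eif2c1 shared 49 of 60 bases with Eif2c4, and that of Eif2c3 shared 49 of 60 with Eif2c1. Bases 1 to 30 of the first and bases 30 to 59 of the second are shown with capitals at the bases that differ from that relative.
Eif2c1 coding probe, against Eif2c4: TaTgtcCtTtgggatgacaacCgTttcacA
Eif2c3 coding probe, against Eif2c1: tgtgtAcaAgtCaagaatgtAAtAaaAacA

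The mRNAs of the machinery can themselves be miRNA targets, and their 3′ UTRs were searched for words complementary to bases 2 to 8 of 4 miRNAs. The mature sequences are from RefSeq (GRCm38.p6) and are shown because miR-294 of ES cells and miR-302d share a seed, in capitals, that differs from those of let-7a and miR-9.
mmu-miR-294-3p: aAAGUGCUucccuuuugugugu
mmu-miR-302d-3p: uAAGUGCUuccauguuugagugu
mmu-let-7a-5p: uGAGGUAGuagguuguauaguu
mmu-miR-9-5p: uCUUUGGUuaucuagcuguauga

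Matches to the shared miR-294 and miR-302d seed (word AGCACTT on the mRNA strand) were found in Eif2c3 (3), Tnrc6b (2) and Tnrc6c (1), those to let-7a (CTACCTC) in Eif2c2 (1) and Eif2c3 (1), and those to miR-9 (ACCAAAG) in Tnrc6a (1) and Tnrc6b (1). The windows of 29 bases below are from the longest annotated 3′ UTR of each gene, with the match in capitals. They hold the only match of Tnrc6c and the first of Tnrc6b to the miR-294 seed. The others are the only match of Eif2c2 to let-7a and the only match of Tnrc6a to miR-9.
Tnrc6c, miR-294 and miR-302d word: gcggccggccgAGCACTTggacgtggtgg
Tnrc6b, miR-294 and miR-302d word: gggaacatgctAGCACTTgtgtgatatcc
Eif2c2, let-7a word: atgcataaaagCTACCTCtgacttctcat
Tnrc6a, miR-9 word: tttttccaaaaACCAAAGgtagctttgaa

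Long 3′ UTRs hold such words often. The miR-294 word was present in 13.4% of the 3′ UTRs of all 19915 genes. It was in 27.3% of the 2492 of a length like Tnrc6c, in 86.2% of the 29 like Tnrc6b and in 89.5% of the 19 like Eif2c3. The let-7a word was in 8.80% of all, in 27.9% of those like Eif2c2 and in 42.1% of those like Eif2c3. The miR-9 word was in 11.4% of all, in 20.8% of those like Tnrc6a and in 55.2% of those like Tnrc6b. No word of the 4 miRNAs was in the 3′ UTRs of Eif2c1, Eif2c4, Ddx6 and Mov10 used here, and a match is a description of the letters, not of a site in use.

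Total RNA of the machinery shifted in composition over the 4 stages, as the plot of total RNA by stage shows. From ES to NPC/Neu, 6 of the 12 probes were at least 2-fold higher (both probes of Eif2c1 and Eif2c4, and those of Tnrc6b and Tnrc6c), 1 was at least 2-fold lower (Mov10), and 5 changed less (both of Eif2c2, and Eif2c3, Tnrc6a and Ddx6). Among all probes well above background on either array, 16.9% were at least 2-fold higher and 16.6% lower. Technical spread was taken from 399 probes printed in 10 spots each, which gave a spot SD of 0.22 for a log2 change of this kind. It covers noise between spots of an array, not variation between cultures.

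**Figure D1:**
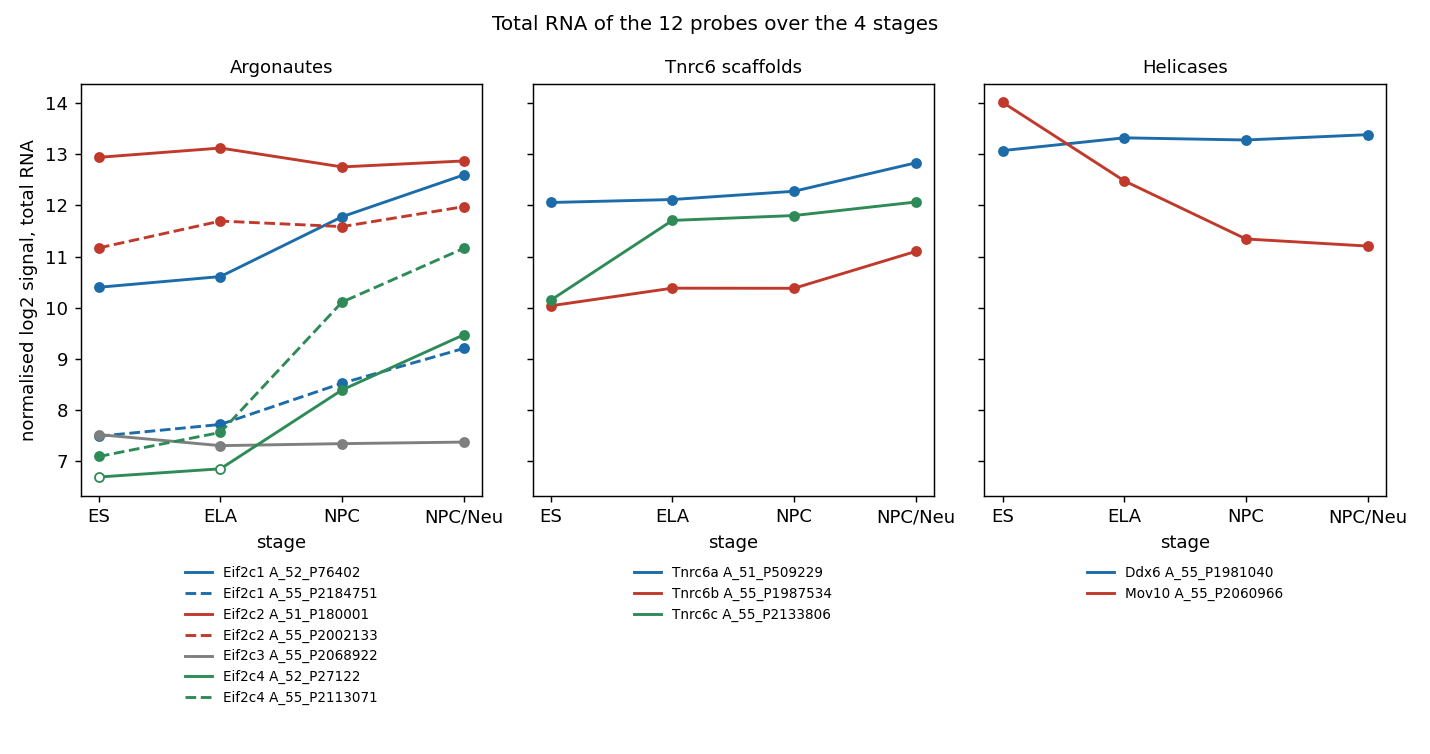
Normalized log2 total RNA signal (y) of the 12 probes at the 4 stages (x), in panels for Argonautes, Tnrc6 scaffolds and helicases, with 1 array per point, no error bar and open points where a probe was not well above background. Both Eif2c4 probes climb after ELA, Tnrc6c climbs from ES to ELA, and Mov10 falls from 14.01 to 11.21.

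Eif2c4 (Ago4) had the largest range of the 9 genes in total RNA. Its probe 2748 bases from the transcript end read 7.09, 7.56, 10.11 and 11.16 in ES, ELA, NPC and NPC/Neu on the log2 scale, a gain of 4.07 ± 0.21 (spot SD) or 16.7-fold. ES and ELA differed by 0.47 on this probe, 2.00 times the spot SD, and each later step exceeded 5 times the spot SD. The size of the first step depended on the setting, with values from 0.47 to 1.51 over the alternatives, the highest with the processed signal. Its other probe, 373 bases from the end, was not well above background in ES (6.69) and ELA (6.85) and reached 8.39 in NPC and 9.47 in NPC/Neu. With 6.74, the lowest ES signal well above background, in place of its ES value, the gain to NPC/Neu was 6.63-fold. With its own ES value the log2 gain was 2.78, and 2.68 to 4.69 over the alternative settings. The raw signal of this probe in ES cells was 104.5 over a local background of 66.

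Eif2c1 (Ago1) was higher at each later stage. The 3′ UTR probe read 10.40, 10.61, 11.78 and 12.59 over the stages, a total gain of 2.19 ± 0.22 (4.58-fold). The coding probe read 7.49, 7.72, 8.53 and 9.21, a gain of 1.72 ± 0.21 (3.28-fold). On both probes the ES and ELA values differed by less than the spot SD, while the steps from ELA to NPC and from NPC to NPC/Neu were over 3 times as large as it. Which probe gained more depended on the setting, since with the processed signal and 75th percentile scaling the coding probe gained 2.26 and the 3′ UTR probe 2.11. The part of Eif2c4 RNA in the signal of the coding probe was not tested.

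Eif2c2 (Ago2), the Argonaute that can cut its target, was near constant at 1 probe. The probe 4808 bases from the end read 12.94, 13.12, 12.75 and 12.87, and its ES and NPC/Neu values differed by 0.07, under the spot SD of 0.22. The probe 3650 bases from the end read 11.17, 11.69, 11.59 and 11.97, which is a gain of 0.81 ± 0.22 from ES to NPC/Neu. The sign of the small change at the first probe also depended on the scaling, with values from -0.45 to 0.00.

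Eif2c3 (Ago3) was dim and flat at its only probe. It read 7.52, 7.31, 7.35 and 7.38, and no consecutive pair of stages differed by more than the spot SD. The probe was well above background on all 8 arrays, with raw total RNA signals of 144 to 198 over local backgrounds of 60 to 82. It covers 1 of 5 transcripts and lies 13656 bases from the end of that transcript, so other isoforms are not measured by it.

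Of the scaffolds, Tnrc6c changed most and at the first transition. Its signals were 10.15, 11.71, 11.80 and 12.06 in the 4 stages, and the first step was a gain of 1.56 ± 0.21 (2.95-fold). Tnrc6b read 10.04, 10.38, 10.38 and 11.10, a gain of 1.06 ± 0.22 from ES to NPC/Neu that lay just past 2-fold and ran from 0.97 to 1.10 over the alternative settings. Its ELA and NPC values differed by less than the spot SD. Tnrc6a, whose probe is held by 1 of 5 annotated transcripts, read 12.06, 12.11, 12.28 and 12.83, and most of its gain of 0.77 ± 0.22 lay between NPC and NPC/Neu (0.55). At that last step all 3 scaffolds were higher, by 0.26 to 0.72.

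The helicases differed. Ddx6 was steady, with 13.07, 13.32, 13.28 and 13.38, and its change from ES to NPC/Neu of 0.31 took values from -0.14 to 0.32 over the alternative settings. Mov10 was the one member that was at least 2-fold lower. It read 14.01, 12.48, 11.34 and 11.21 over the stages, a fall of 7.00-fold in all, of which 2.90-fold fell between ES and ELA and 2.20-fold between ELA and NPC. The last step of -0.14 was under the spot SD.

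Counted by transition, total RNA from ES to ELA was at least 2-fold higher for 1 of 11 probes that were well above background on either array (Tnrc6c) and lower for 1 (Mov10), beside 4.90% and 5.17% of all probes. From ELA to NPC it was higher for 3 of 12 (the Eif2c4 probes and the 3′ UTR probe of Eif2c1) and lower for 1 (Mov10), beside 11.1% and 10.1%. From NPC to NPC/Neu it was higher for 2 of 12 (the Eif2c4 probes) and lower for 0, beside 5.92% and 4.17%. With 12 probes, these counts differ from the shares over all probes by few probes. From NPC to NPC/Neu 11 of the 12 probes had a change above 0, beside 46.4% of all probes well above background, with a median of 0.47 beside -0.04. The changes of Eif2c3, Ddx6 and 1 Eif2c2 probe in this count were under the spot SD, and with 75th percentile scaling the count was 9.

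Whether these mRNAs were on Ago was read first from the Ago–RNA signal. A probe was counted as bound when this signal was above T1 (7.82 on the log2 scale). T1 lies 3 SD above the mean of the dim component when 2 Gaussians are fitted to the Ago–RNA signals. In ES cells 11 of the 12 probes were bound, in ELA 11, and in NPC and NPC/Neu all 12, beside 43.9%, 44.0%, 44.0% and 43.9% of all probes. The exception in ES and ELA was the dim Eif2c4 probe 373 bases from the transcript end, with Ago–RNA signals of 6.97 and 7.35. Expression bears on this count, since 73.0% to 80.1% of all probes well above background in total RNA of a stage were bound as well. The shares of all probes are near equal at the stages because quantile normalization gives each array the same distribution and the same T1 was used. Bound thus means a bright Ago–RNA signal, and control immunoprecipitations were not used.

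Ago enrichment (E) is the Ago–RNA signal minus the total RNA signal of a stage, both in log2. Among bound members it was above 0 for 10 of 11 probes in ES and ELA and for 11 of 12 in NPC and NPC/Neu, the exception being 1 probe of Eif2c2. At the 4 stages E was above 0 for 55.1%, 49.6%, 54.5% and 56.2% of all bound probes. Of bound probes of the longest genes, 73.7% to 86.5% had E above 0 at a stage. E was at least 1 among bound members for 5 of 11 probes in ES (Tnrc6a, Tnrc6b, Tnrc6c, Mov10 and 1 of Eif2c2), 2 of 11 in ELA, 7 of 12 in NPC and 8 of 12 in NPC/Neu, beside 15.4%, 6.13%, 7.80% and 16.5% of all bound probes. The members are long mRNAs, and E is higher for long transcripts on these arrays. Except for Mov10 (3718 bases), the longest transcript of each member falls in the longest of 4 equal groups of genes by length (over 3966 bases), where the median E of bound probes was 0.81, 0.28, 0.45 and 0.76 over the stages, beside 0.11, -0.00, 0.07 and 0.13 for all bound probes. In this longest group the upper quartile of E was 1.25, 0.63, 0.82 and 1.26, so E of at least 1 was common there in ES and NPC/Neu. Quantile normalization gives each array the same distribution, so E places an mRNA relative to others and does not give the amount on Ago.

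**Figure D2:**
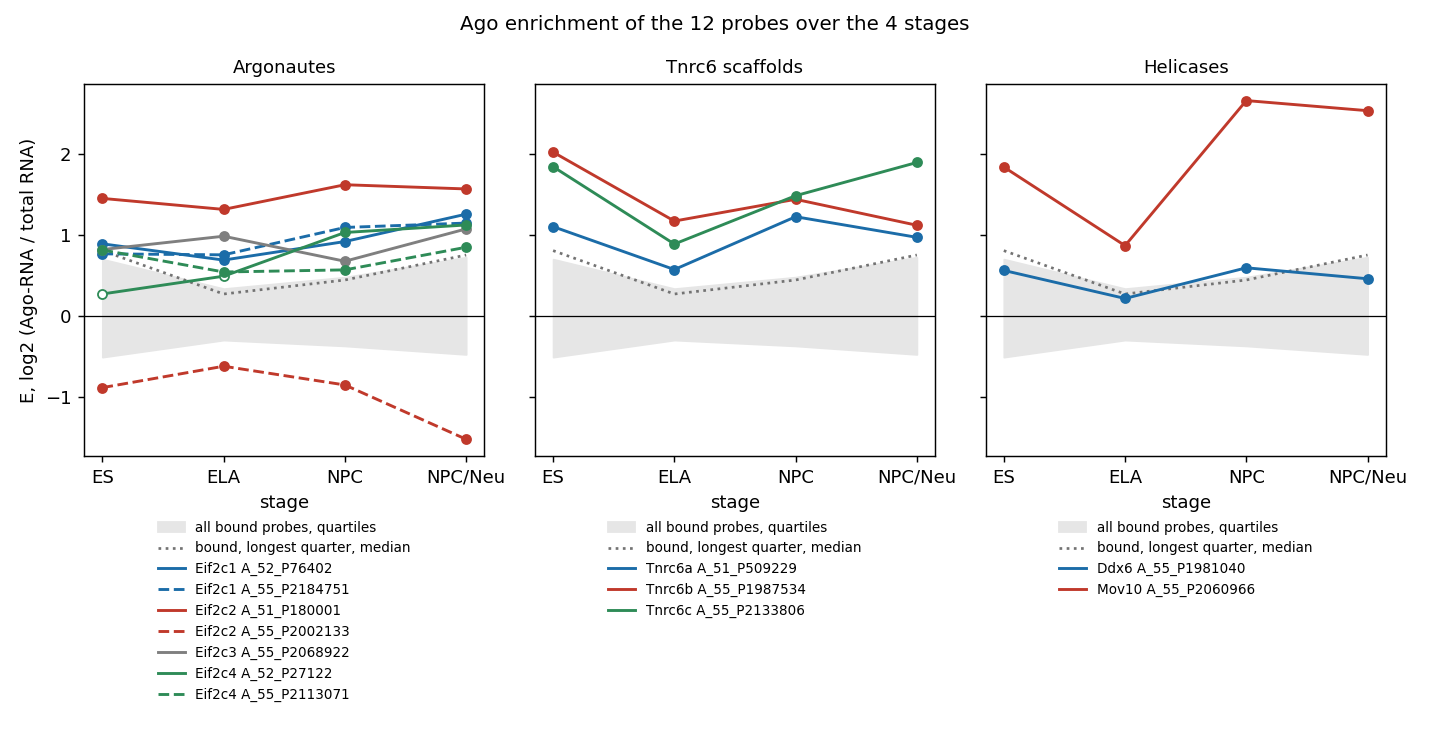
E (y) of the 12 probes at the 4 stages (x), 1 Ago–RNA and 1 total RNA array per point, with the quartiles of all bound probes (gray band) and the median of bound probes of the longest genes (dotted line). Mov10 and the Tnrc6 probes lie above the band at each stage, Ddx6 lies within it except in NPC, and 1 Eif2c2 probe lies below it.

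Mov10 had the highest E of the members in NPC and NPC/Neu. From ES to NPC/Neu its E was 1.85 ± 0.22, 0.87 ± 0.22, 2.67 ± 0.21 and 2.54 ± 0.23 (spot SD). The median of bound probes of genes in its length group lay between 0.00 and 0.31 at the 4 stages, and Mov10 lay above 98.67%, 92.98%, 99.85% and 99.73% of those probes. On the Ago–RNA arrays Mov10 read 15.86, 13.35, 14.01 and 13.75. Between ES and ELA the Ago–RNA signal thus fell by 2.50 while total RNA fell by 1.53, and between ELA and NPC the Ago–RNA signal was higher by 0.66 while total RNA fell by 1.14. The variation of E between stages (ΔE) from ELA to NPC was 1.79 ± 0.30, and it was at least 1 for no other member and for 2.27% of all probes bound at either stage.

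The Tnrc6 scaffolds had lower E in ELA than in ES cells, as long genes had in general. Tnrc6b had E of 2.03, 1.18, 1.45 and 1.13 over the stages, Tnrc6c 1.85, 0.89, 1.49 and 1.90, and Tnrc6a 1.11, 0.58, 1.23 and 0.98. From ES to ELA, ΔE was -0.85 for Tnrc6b, -0.96 for Tnrc6c and -0.53 for Tnrc6a, with a spot SD of 0.31, beside a median of -0.44 for probes of the longest genes. Tnrc6b lay above 96.68% of bound probes of these genes in ES and 93.75% in ELA, Tnrc6c above 94.29% and 86.07%, and Tnrc6a above 67.40% and 71.78%. For Tnrc6c this came with higher total RNA and an Ago–RNA signal higher by 0.60, and for Tnrc6b the Ago–RNA signal fell by 0.51. In NPC/Neu Tnrc6c was back at its ES value while Tnrc6b stayed 0.90 below its own.

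Among the Argonautes, E of Eif2c1 was alike at its 2 probes. The 3′ UTR probe had 0.90, 0.70, 0.92 and 1.26 and the coding probe 0.77, 0.76, 1.10 and 1.15, so that they differed by at most 0.17, less than the spot SD of such a difference (0.29 to 0.35). This closeness depended on the setting. With normexp and 75th percentile scaling the 3′ UTR and coding probes had E of 0.97 and 0.17 in ES cells and 1.48 and 0.96 in NPC/Neu. Eif2c3 had E of 0.83, 0.99, 0.68 and 1.08 at its dim probe. The brighter Eif2c4 probe had 0.82, 0.55, 0.57 and 0.85. From ES to NPC/Neu its log2 gain of 4.07 in total RNA was met by one of 4.10 on the Ago–RNA arrays, and E changed by 0.03. This near balance rests on a dim ES value, and the change in E ran from -1.06 to 0.81 over the alternative settings. The other Eif2c4 probe did not show it, with gains of 2.78 in total RNA and 3.63 on the Ago–RNA arrays and a change in E of 0.85 ± 0.28. In ES cells that probe was not bound and not well above background in total RNA. Its E was 1.04 in NPC and 1.13 in NPC/Neu.

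Eif2c2 gave opposite answers at its 2 probes. At the probe 4808 bases from the transcript end, E was 1.46, 1.32, 1.63 and 1.57, and at the probe 3650 bases from the end it was -0.88, -0.62, -0.85 and -1.52. The 2 probes lie 1158 bases apart in 1 annotated 3′ UTR, on the same strand, and the only annotated transcript holds both. They differed in E by 2.34, 1.94, 2.47 and 3.09, over 5 times the spot SD of 0.29 to 0.35. Among 2888 gene names with exactly 2 probes bound at all stages, the median absolute difference was 0.21 to 0.36, and Eif2c2 lay above 99.24% of these genes in ES and above a larger share at the later stages. Whether the mRNA of Ago2 is enriched on Ago thus depends on the probe that is read. Members with only 1 probe, Mov10 and the Tnrc6 genes among them, give no such comparison.

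**Figure D3:**
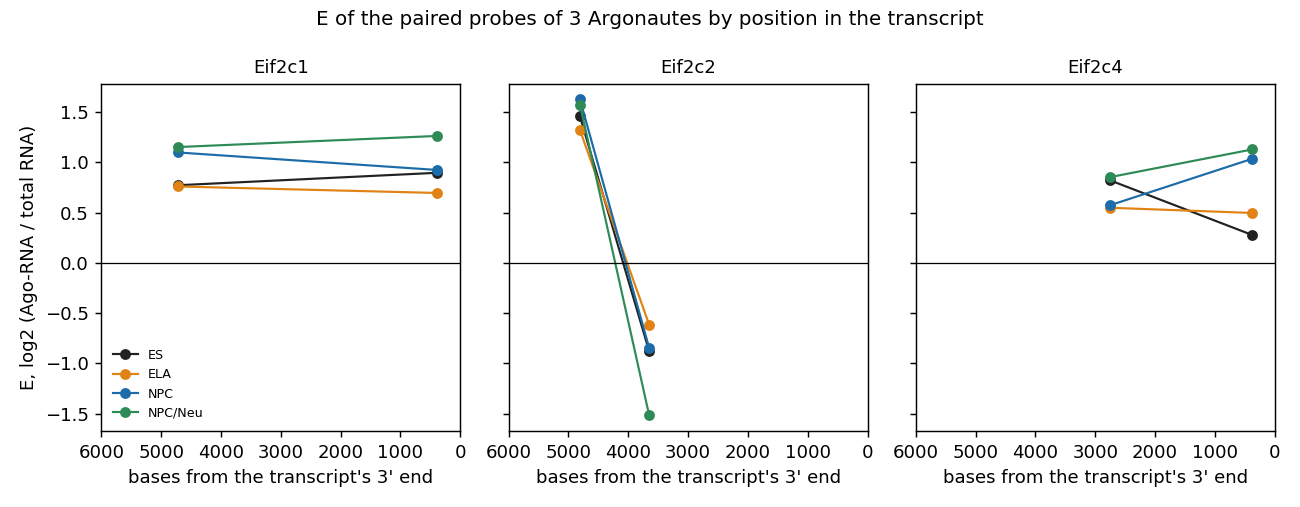
E (y) of the 2 probes of Eif2c1, Eif2c2 and Eif2c4 against their distance in bases from the 3′ end of the longest transcript (x), 1 line per stage. The lines of Eif2c1 are near level, while those of Eif2c2 drop from above 1 to below 0 between 4808 and 3650 bases.

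Ddx6 was bound without standing out. Its E was 0.57, 0.22, 0.60 and 0.46, below the median of the longest genes in ES, ELA and NPC/Neu and above it in NPC. Among members' probes bound at all stages, the lowest E fell in ELA for 8 of 11, beside 31.8% of all 20706 such probes and 52.4% of those of the longest genes. From ES to ELA 9 of the 11 bound probes had a ΔE below 0, beside 50.8% of all bound probes and 77.0% for the longest genes. The median ΔE of the 11 was -0.27, a smaller fall than the -0.44 of the longest genes. Of the 9 with ΔE below 0, 7 stayed within 3 times the spot SD. Those beyond it were Mov10 (-0.97) and Tnrc6c (-0.96). By the first thresholds of the study's methods for release (E at least 2, then at most 0.5, with a change of at least 1.5) or the reverse for loading, 0 of the 12 probes were released or loaded at any of the 3 transitions, beside 0.325%, 0.116% and 0.0650% of all probes. Tnrc6b in ES cells met the E of 2 and stayed above 0.5 in ELA, and Mov10 met the change and the later E from ELA to NPC but not the earlier E. With the low threshold of 1.2 that the methods give for later steps in place of 0.5, Mov10 was loaded from ELA to NPC (1 of 12 probes), beside 0.177% of all probes, and the count stayed 0 at the other transitions.

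**Figure D4:**
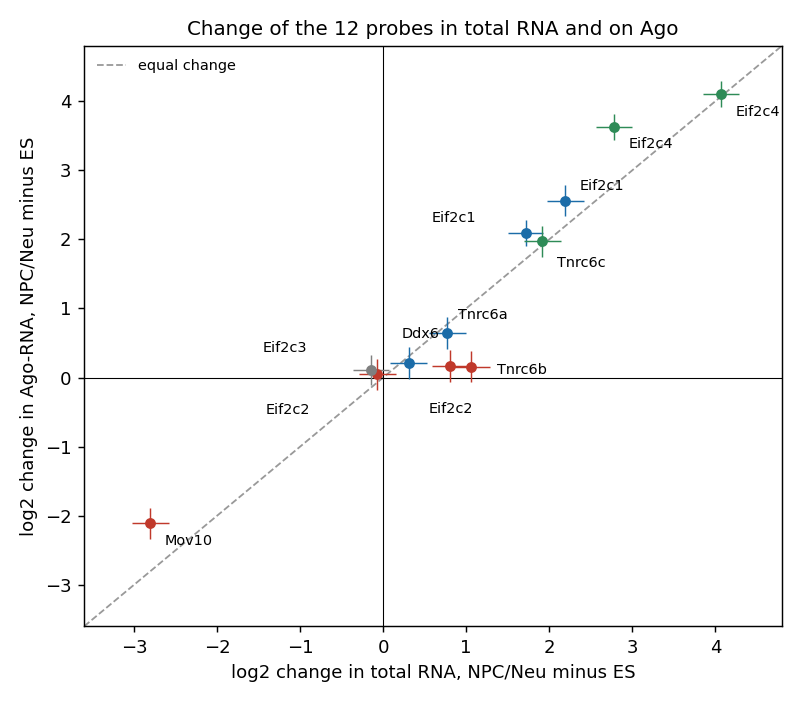
NPC/Neu minus ES in log2 total RNA (x) and in log2 Ago–RNA (y) of the 12 probes, with bars of 1 spot SD and a dashed line of equal change. The Eif2c4, Eif2c1 and Tnrc6c probes lie at the upper right near or above the line, Tnrc6b and 1 Eif2c2 probe lie below it near 0.16 on the Ago–RNA axis, and Mov10 lies at the lower left above the line.

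Genes whose probes ran most like those of the members over all 8 arrays were named by the smallest root mean square difference of log2 signals after centering each probe, among 16115 probes of named genes well above background on all arrays. For the 3′ UTR probe of Eif2c1 these were Crtc1 (0.14) and Ndst1 (0.15), for its coding probe Fam40a (0.11) and Arhgef7 (0.13), and for the brighter Eif2c4 probe Srgap3 (0.19). Sbf1 and Aak1 (both 0.21) were nearest to Tnrc6b, and Insr (0.20) and Clip2 (0.23) to Tnrc6c. Mov10 had no near neighbor, with Utp20 at 0.43 and Epha2 at 0.44 as the closest. In total RNA Srgap3 read 7.13, 7.24, 10.27 and 11.01, higher after ELA as Eif2c4 was.

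Few of the partners that the machinery recruits changed 2-fold. Values are means over the probes of a gene that were well above background on all 4 total RNA arrays, from ES to NPC/Neu, for which 16.3% of 19903 gene names were at least 2-fold higher and 16.4% lower. Of 13 deadenylation genes 2 were higher, namely the catalytic subunits Cnot6 (1.64) and Cnot6l (1.25), and 1 was lower (Cnot10, -1.19), with Rqcd1 next at -0.90 and a median of 0.16. Of 9 decapping and decay genes 1 was higher (Dcp1b, 1.62, followed by the exonuclease Xrn1 at 0.34) and 0 were lower, the lowest being the decapping enzyme Dcp2 (-0.97) and Lsm1 (-0.80). None of 5 partners of Ddx6 in repression changed 2-fold, with values from -0.31 (Gigyf2) and -0.30 (Eif4e2) to 0.12 (Eif4enif1) and 0.51 (Lsm14b).

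Of 12 genes for Ago loading, import and regulation 2 were higher, Trim32 (1.57) and Limd1 (1.09), and 3 were lower, with a median of -0.61. The lowest were Trim71 (-2.62), a ubiquitin ligase of pluripotent cells and a let-7 target, and Jub (-2.20), the array's name for Ajuba. The median E of these lists lay between -0.09 and 0.91 at the 4 stages. Of the germline relatives, Piwil2 and Mov10l1 were well above background in ES (9.03 and 8.67) and ELA (7.79 and 7.89) and not in NPC and NPC/Neu, while Piwil1 and Piwil4 were not well above background on any total RNA array.

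**Figure D5:**
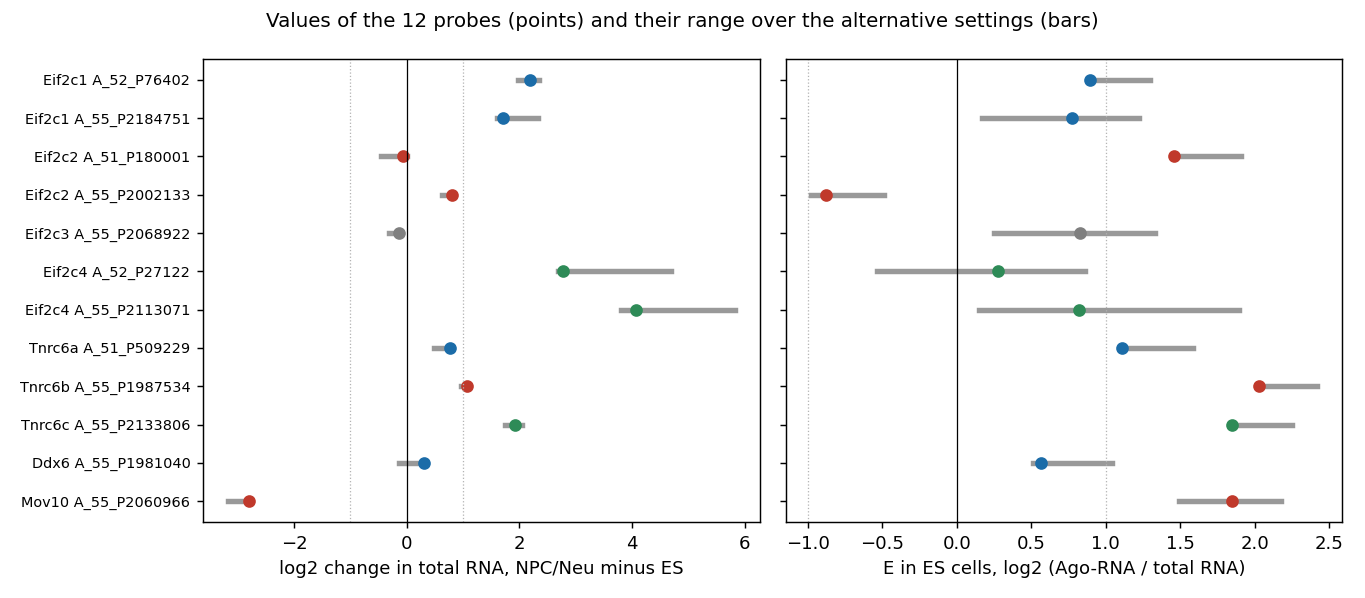
NPC/Neu minus ES in log2 total RNA (left) and E in ES cells (right) of the 12 probes (y), as points, with bars over the alternative settings of background correction, normalization and filter. The gains of Eif2c1, Eif2c4 and Tnrc6c and the fall of Mov10 keep their sign and stay beyond 1, while the gain of Tnrc6b (0.97 to 1.10) crosses 1 and the E of the dim Eif2c4 probe spans 0.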

How the data were processed

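Per the file headers, the deposited files hold each spot's intensity from Feature Extraction 10.7.3.1, not normalized between arrays. The submitters' processing notes name version 9.1 and limma. The labels state 50 ng of labeled RNA per array. Local background was removed by normexp with an offset of 50, irregular spots were dropped, and quantile normalization of the 8 arrays followed, in R 4.3.3 with limma 3.58.1. T1 was fitted with mclust 6.1.1. Python 3.11.15 with pandas 2.3.3 and numpy 2.4.6 gave the other values. The procedure was tested on simulated data.

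Members and lists were chosen with earlier results of these data known. Named genes were the members, 2 nearest neighbors for each member probe with a range of at least 1 and well above background on all arrays (numbered, Riken and Gm names left out; 1 neighbor is not reported here), the 2 highest and 2 lowest genes of each list and stage markers. Probes were placed on GENCODE vM1 transcripts of the mm9 build. The alternatives were offsets of 16 and 0, the processed signal with quantile or 75th percentile scaling, normexp with 75th percentile scaling, quantile normalization within each RNA type, a filter on background and T1 at 2 SD. Control immunoprecipitations were not used here.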

Additional observations from a re-analysis of the deposited data

How the results depend on the processing

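Across 8 alternatives and a relaxed threshold of E for release and loading, chosen after seeing the data, 109 counts of members stayed within 1.5 times the value reported and 6 did not. Counts of 0 released or loaded probes that stayed 0 are among the 109. The counts of bound probes also moved within this limit. With normexp and 75th percentile scaling, 8 probes in ES and 8 in ELA were bound in place of 11 and 11, beside 34.6% and 37.4% of all probes. With the processed signal and quantile normalization 12 were bound in ES, beside 70.7% of all probes. With the relaxed threshold of 1.2, 1 probe (Mov10) was loaded from ELA to NPC in place of 0. With the scanner software's processed signal and quantile normalization, 8 probes in ES and 5 in ELA had E of at least 1, in place of 5 and 2, while the share of all bound probes was 20.3% and 14.2%. With quantile normalization within each RNA type the count in ELA was 6, beside 11.3%, and 0 probes were changed 2-fold from NPC to NPC/Neu in place of 2. With normexp and 75th percentile scaling this count was 1. The 2 Eif2c4 probes of this count lay near the cutoff of 1. They gained 1.08 and 1.05 as reported, 0.99 and 0.99 within RNA type, and 1.11 and 0.94 with normexp and 75th percentile scaling. Why the values moved was not tested. Quantile normalization within each RNA type moved the median E of bound probes in ES from 0.11 to 0.33, and E of the members is to be read relative to it. No single value past 2-fold changed its sign under any alternative. Dim probes moved most. Total RNA of the brighter Eif2c4 probe gained between 3.81 and 5.82 from ES to NPC/Neu, and E of Eif2c3 in ELA ran from 0.63 to 1.86. No paired analysis was possible because each condition has 1 array.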
